A study of Mus musculus with 18 samples.

Results

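Chemokine receptors are the proteins through which macrophages sense the gradients of chemokines that draw them to a site of infection or hold them in a tissue. The 9 receptor genes described here are Ccr1, Ccr2, Ccr3, Ccr7, Ccrl2, Cx3cr1, Cxcr4, Ackr3 and Cmklr1. They were chosen by name from the 22852 gene symbols in the count data of all 18 samples, and 8 of the 9 passed the filter on low counts, with Ccr7 below it. The samples were bone marrow-derived macrophages (BMDMs), that is, cells flushed from the femurs and tibias of female C57BL/6 mice and grown in medium conditioned by L929 cells, with 3 biological replicates in each of 6 groups. Neither the age of the mice nor the number of animals behind each replicate was given, so p values measure the spread between these samples, which may be partly technical. No transgene or mutant allele was involved.

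Unstimulated BMDMs received no lipopolysaccharide (LPS), the cell wall component of Gram-negative bacteria that activates TLR4. LPS-primed BMDMs received 100 ng/ml of Salmonella LPS for 24 h. LPS-tolerant BMDMs received the same priming and then 10 ng/ml LPS in fresh medium for 3 h. LPS-stimulated BMDMs received 10 ng/ml LPS once, for 3 h according to the scheme of the study's cytokine assay, while the labels give no time for them. In the 2 remaining groups, carboplatin, a platinum drug that crosslinks DNA, was added at 25 µM ahead of the priming dose, and the cells were otherwise treated as LPS-primed or as LPS-tolerant BMDMs. RNA-Seq counted between 6869667 and 14708099 read pairs on genes per sample. Macrophage markers were abundant in every sample, with a summed level of 8 markers between 142042 and 304597 normalized counts. In bulk RNA, fewer cells of a type and less RNA per cell cannot be told apart.

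Most chemokine receptors signal through inhibitory G proteins to direct cell movement, whereas atypical receptors such as Ackr3 and the receptor-like Ccrl2 bind a ligand without driving migration through G proteins. Cells of the monocyte and macrophage lineage are known for Cxcr4, which retains leukocytes in the marrow through Cxcl12, for Ccr2, which brings inflammatory monocytes out of the marrow, and for Cx3cr1, the fractalkine receptor of monocytes and resident macrophages. Ccr1 and Ccr3 respond to inflammatory CC chemokines, Cmklr1 responds to chemerin, and Ccr7 guides mature dendritic cells to lymph nodes.

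The receptor with the highest mean level differed between the states of the cells. When levels were divided by gene length, as CPM per kb of annotated exon, Cxcr4 was the highest receptor of unstimulated BMDMs at 194, followed by Cx3cr1 at 7.85, with Ccr2 and Ccrl2 both at 5.58. In LPS-stimulated BMDMs the order of mean levels was Ccrl2 at 41, Ccr1 at 26.7, Ccr3 at 10.6 and Cxcr4 at 8.33. This order did not hold in every library. Normalized counts were 1725, 702 and 579 for Ccrl2 and 492, 835 and 798 for Ccr1. Divided by length, Ccr1 was above Ccrl2 in replicates 2 and 3, and Cxcr4 was above Ccr3 in replicate 1. In LPS-primed BMDMs Ccr1 led at 141, ahead of Cxcr4 at 67.0 and Ccrl2 at 10.9. Ackr3 and Ccr7 stayed under 0.2 on this scale in each of the 6 groups.

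Of the 9 genes, 5 lie on mouse chromosome 9, and 3 of these, Ccr1 (chr9:123762161-123768734, minus strand), Ccr3 (chr9:123822009-123831726, plus strand) and Ccr2 (chr9:123901982-123913594, plus strand), stand in one cluster of chemokine receptor genes in GRCm39. The others on this chromosome are Ccrl2 (chr9:110883554-110886591) and Cx3cr1 (chr9:119877749-119898945). Cxcr4 (chr1:128515936-128520044) and Ackr3 (chr1:90131689-90144473) lie on chromosome 1, Cmklr1 (chr5:113750358-113788509) on chromosome 5 and Ccr7 (chr11:99035022-99045911) on chromosome 11. Cx3cr1, Cmklr1 and Ccr7 each overlap an annotated gene model on the opposite strand, and the strand setting of the counting was not stated.

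Ccr1 and Ccr3 lie in the same cluster, with Ccr1l1 between them, and both rose in LPS-stimulated BMDMs. Ccr1 alone of the 2 passed in LPS-primed BMDMs, which differ from LPS-stimulated BMDMs in dose as well as in time. The 250 bases before the annotated starts of Ccr1 and Ccr3 are therefore shown here from the GRCm39 genome. They are written 5′ to 3′ on the strand of each gene. Capitals mark matches to the NF-kB motif and, in Ccr3, to the AP-1 motif TGANTCA. NF-kB and AP-1 are the transcription factors activated downstream of TLR4.
Ccr1, chr9:123768735-123768984, minus strand: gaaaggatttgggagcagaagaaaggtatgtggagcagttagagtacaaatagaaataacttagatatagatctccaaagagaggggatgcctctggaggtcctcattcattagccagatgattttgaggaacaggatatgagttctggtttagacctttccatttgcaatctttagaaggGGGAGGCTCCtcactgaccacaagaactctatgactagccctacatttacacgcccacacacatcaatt
Ccr3, chr9:123821759-123822008, plus strand: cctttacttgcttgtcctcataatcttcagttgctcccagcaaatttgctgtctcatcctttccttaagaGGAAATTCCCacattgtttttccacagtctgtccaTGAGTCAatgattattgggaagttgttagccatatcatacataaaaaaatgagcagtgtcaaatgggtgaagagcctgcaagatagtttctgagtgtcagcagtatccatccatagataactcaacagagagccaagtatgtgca
The NF-kB match of Ccr1 lies 69 to 60 bases upstream of the start, and that of Ccr3 lies 180 to 171 bases upstream, with the AP-1 match at 145 to 139. No other receptor had an NF-kB match in this window, and Ccr7 alone shared the AP-1 match, so 2 of the 9 receptors matched each of the 2 motifs. Among 19160 promoter windows of the same length, 8.06% held the NF-kB motif and 5.99% the AP-1 motif on either strand. The PU.1 motif GAGGAA, a core recognised by the macrophage factor PU.1, was also found in Ccr1 and in Ccr3, where it overlapped the NF-kB match, and it was present in 23.0% of all windows. The C/EBP motif TTGCNNAA was found in Ccr2 and Ackr3 and in 9.09% of windows. The interferon response motif GAAANNGAAA was found in 0 of the 9 receptors and in 3.23% of windows. The windows compared are unlike, since those of Ccr2, Ccr7, Ccrl2, Cxcr4 and Cx3cr1 held 143 to 250 bases of annotated exon and those of the other four held 0. These matches describe the letters of the windows and are not evidence of binding.

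To see which receptors differed after 24 h of LPS, LPS-primed BMDMs were set against unstimulated ones. Ccr1, Cmklr1 and Ackr3 rose, while Cx3cr1, Ccr2 and Cxcr4 fell. Thus, 6 of the 8 tested receptors passed an adjusted p of 0.05, 3 in each direction, whereas 12.1% of all 11305 tested genes were called higher and 13.1% lower. With the additional limit of a log2 fold change (log2FC) beyond 2, 5 of the 8 receptors were called, beside 7.47% of all genes. Among these 5 was Ackr3, which had 0 reads in unstimulated BMDMs. Its rise is bounded only at 3.25-fold or more, so it is not certain to exceed this limit. The median log2FC of the receptors was 1.18, beside -0.02 over all genes. With the replicate number as a block, 7 receptors were called, the additional one being Ccrl2, beside 38.6% of all genes.

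The first response to 10 ng/ml was read from LPS-stimulated against unstimulated BMDMs, which share the unstimulated samples with the comparison above. Ccr1, Ccr3 and Ccrl2 rose and Cxcr4, Ccr2 and Cx3cr1 fell. Again 6 of 8 receptors passed, 3 in each direction, beside 24.3% of all genes called higher and 26.9% called lower. With the fold limit 5 of 8 were called, beside 12.0% of all genes. The plot of counts by group shows each sample.

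**Figure D1:**
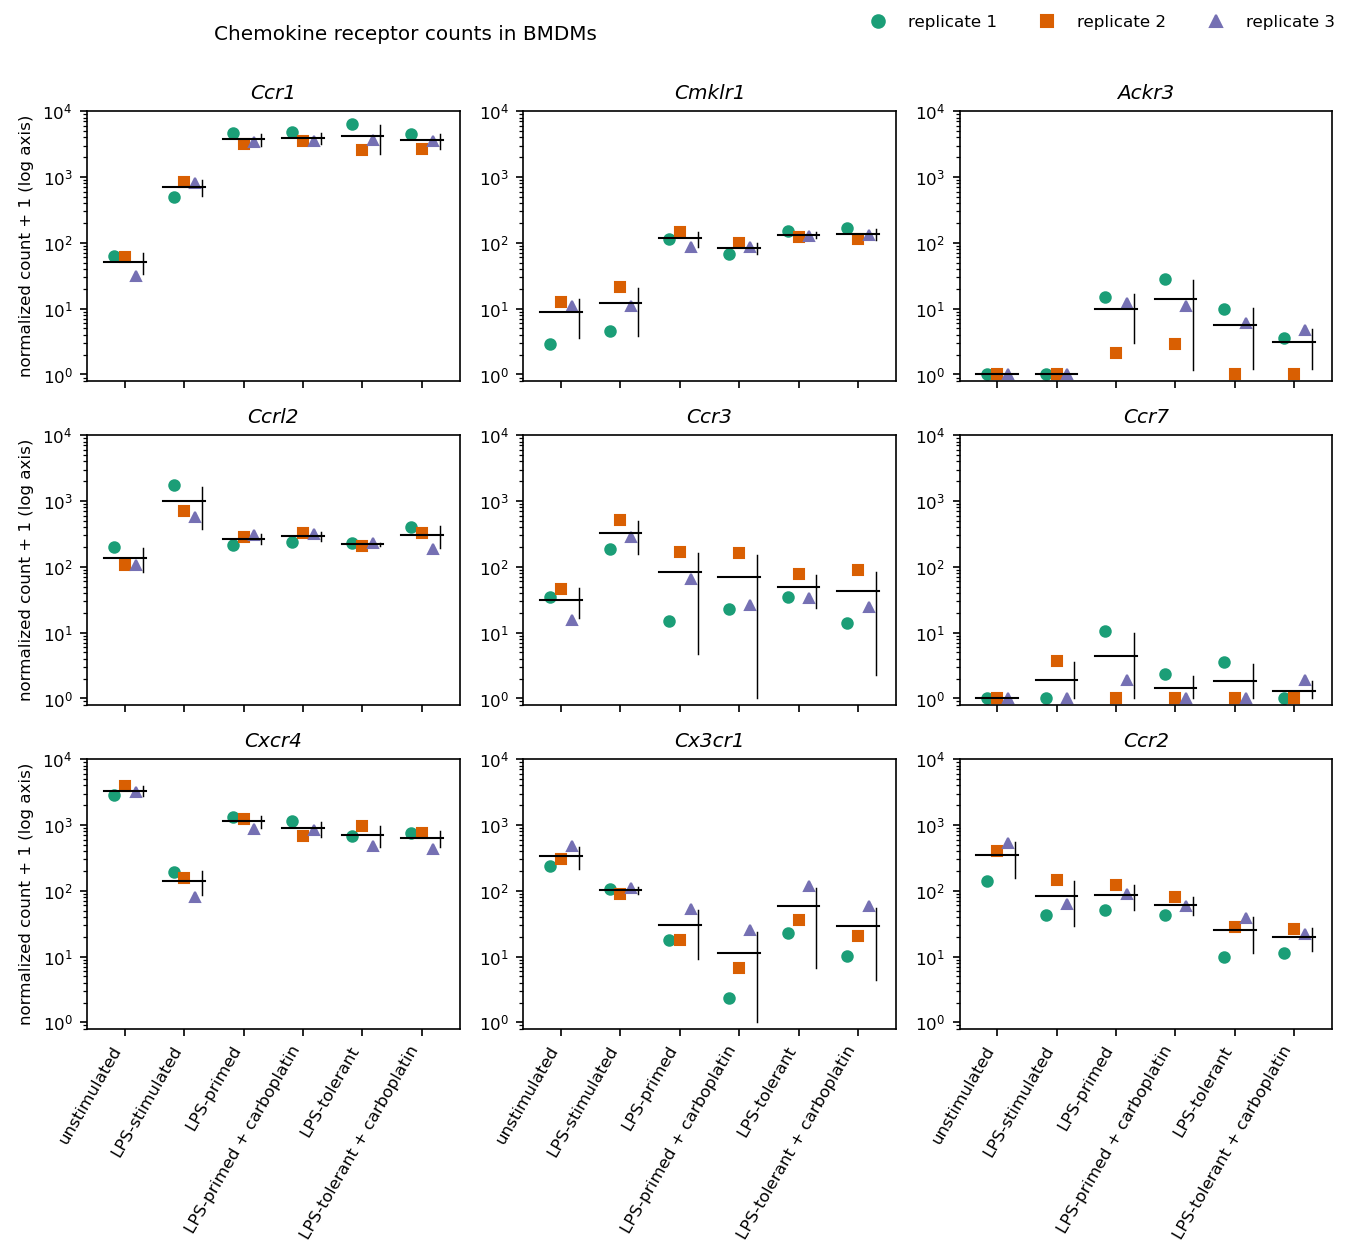
Normalized counts plus 1 on a log axis for the 9 receptors in the 6 groups, with symbols for the 3 replicates, a horizontal line at the group mean and a vertical line for 1 SD, cut at a count of 0. Ccr1 and Cmklr1 are high in the 4 groups primed with LPS, Ccrl2 and Ccr3 peak in LPS-stimulated BMDMs, and Cxcr4 is lowest there, at 78.9 to 192.

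Ccr1, a receptor for Ccl3, Ccl5, Ccl6, Ccl9 and related inflammatory chemokines, had the highest level among primed cells and moved furthest among the receptors with counts in both groups. Its normalized counts were 63.1, 59.8 and 30.0 in unstimulated BMDMs and 4632, 3136 and 3452 in LPS-primed BMDMs (log2FC 6.19, SE 0.40, adjusted p = 6.9e-09). They were 492, 835 and 798 in LPS-stimulated BMDMs, between those 2 groups and overlapping neither (log2FC 3.79 against unstimulated, SE 0.37, adjusted p = 3.0e-07). In LPS-tolerant BMDMs the 3 samples were at 6336, 2593 and 3617, which spanned the range of the LPS-primed samples (log2FC 0.16, SE 0.31, adjusted p = 0.835). LPS-tolerant exceeded LPS-stimulated BMDMs with a log2FC of 2.56 (SE 0.33, adjusted p = 1.6e-05). The 4 primed groups, with means between 3594 and 4182, therefore could not be ordered beyond their spread, and all 4 stood above the other two groups. Neutrophil markers were checked beside Ccr1: of 6 markers Ly6g, Mpo and Retnlg had 0 reads in each of the 18 samples and Elane at most 2, whereas S100a8, which macrophages also express, had a mean of 10.1 in unstimulated and 238 in LPS-primed BMDMs. S100a9 had more than 3 reads only in LPS-tolerant BMDMs, and it was not tested. The summed level of the 6 markers ran from 7.27 to 12.4 in unstimulated, 40.1 to 116 in LPS-stimulated and 82.0 to 435 in LPS-primed BMDMs, and its part in the level of Ccr1 was not tested.

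Cmklr1, the signalling receptor for chemerin, followed the priming but not the first response. Unstimulated BMDMs had 1.91, 11.5 and 10.0 normalized counts and LPS-stimulated BMDMs had 3.58, 20.1 and 9.86, so that these groups overlapped (log2FC 0.58, SE 0.52, adjusted p = 0.368). LPS-primed BMDMs had 115, 147 and 86.3, above every unstimulated sample (log2FC 3.85, SE 0.47, adjusted p = 1.0e-05). LPS-tolerant BMDMs had 149, 121 and 128 and differed from LPS-stimulated BMDMs by a log2FC of 3.46 (SE 0.45, adjusted p = 1.6e-05), which became 4.23 without LPS-stimulated replicate 2. Rarres2, which encodes chemerin itself, had at most 3 reads in any sample.

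Ackr3, an atypical receptor that takes up Cxcl12, was read only after priming. It had 0 reads in all 3 unstimulated and all 3 LPS-stimulated samples. LPS-primed BMDMs held 13, 1 and 12 reads, LPS-primed BMDMs with carboplatin 20, 2 and 10, LPS-tolerant BMDMs 7, 0 and 5, and LPS-tolerant BMDMs with carboplatin 2, 0 and 4. Replicate 2 was the sample with the fewest reads in each of these 4 groups. Against a floor of 3 reads per library, the LPS-primed mean was at least 3.25-fold higher than the unstimulated one (adjusted p = 0.0352), and the LPS-tolerant mean was at least 1.63-fold higher than the LPS-stimulated one (adjusted p = 0.0866, or 0.00797 with the replicate block and 0.0414 without LPS-tolerant replicate 2). The first of these calls was lost, at adjusted p values between 0.0724 and 0.0881, without any one of the 3 unstimulated libraries or without LPS-primed replicate 1 or 3. Cxcl12, the ligand that Ackr3 shares with Cxcr4, had at most 2 reads in any sample.

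Ccrl2, a chemerin-binding receptor that presents its ligand to Cmklr1 on neighbouring cells, peaked in the cells given LPS once. Its normalized counts were 197, 105 and 107 in unstimulated BMDMs and 1725, 702 and 579 in LPS-stimulated BMDMs, with no overlap (log2FC 2.88, SE 0.38, adjusted p = 1.0e-05). LPS-primed BMDMs were at 213, 281 and 307, just above the unstimulated samples (log2FC 0.97, SE 0.37, adjusted p = 0.0631). With the replicate block this difference passed (log2FC 1.05, SE 0.33, adjusted p = 0.0169), as it did without unstimulated replicate 1 (log2FC 1.34, adjusted p = 0.0239). LPS-tolerant BMDMs, at 225, 205 and 225, lay well below the LPS-stimulated samples (log2FC -2.19, SE 0.37, adjusted p = 2.1e-04). The highest sample, LPS-stimulated replicate 1, accounted for part of both differences, which were 2.24 and -1.55 without it and still passed.

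Ccr3, the receptor for eotaxins that is best known from eosinophils, showed a similar peak from a lower base. Unstimulated BMDMs had 33.5, 44.3 and 14.5 normalized counts and LPS-stimulated BMDMs had 183, 511 and 278 (log2FC 3.39, SE 0.87, adjusted p = 0.00391). LPS-primed samples spread widely at 13.8, 167 and 64.7, overlapping the unstimulated ones (log2FC 1.40, SE 0.86, adjusted p = 0.266). LPS-tolerant BMDMs had 34.2, 76.9 and 32.9, all below the LPS-stimulated samples (log2FC -2.74, SE 0.84, adjusted p = 0.0181). This last call was lost without LPS-tolerant replicate 1 (adjusted p = 0.0621) or 3 (0.0707) or LPS-stimulated replicate 2 (log2FC -2.24, adjusted p = 0.077), while the replicate block gave an adjusted p of 3.5e-05. Of 8 eosinophil and basophil markers, 7 had 0 reads in all 18 samples, among them Epx, Prg2 and Il5ra. The remaining one, Siglecf, was at 23.5 to 35.5 normalized counts in LPS-stimulated BMDMs and at most 3.82 in the other groups, and its part in the level of Ccr3 was not tested. Among the ligands of Ccr3, Ccl11 was at 0 reads throughout and Ccl24 had a mean of 41.9 in LPS-stimulated BMDMs against 3.20 in unstimulated BMDMs.

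Ccr7, which leads activated dendritic cells to lymph nodes, was at or near 0. It had no read in 12 of the 18 libraries, among them all 3 unstimulated ones, and 9 reads in LPS-primed replicate 1 were its highest count. In LPS-stimulated BMDMs it had 0, 4 and 0 reads. A difference between groups was not detectable at this depth. Its ligands Ccl19 and Ccl21a had 0 reads in every sample. The dendritic cell genes Flt3 and Zbtb46 had at most 7 reads in any sample, whereas Fscn1 and Ccl22 had means of 269 and 125 normalized counts in LPS-stimulated BMDMs and at most 4.03 and 0.343 in any other group. The summed level of all 9 dendritic cell markers was 383 to 643 in LPS-stimulated BMDMs. It was 73.6 to 135 in unstimulated and 26.3 to 61.4 in LPS-primed BMDMs. Like Ccrl2, this sum peaked in LPS-stimulated BMDMs. In LPS-primed BMDMs it lay below the unstimulated samples, whereas Ccrl2, at 213 to 307 against 105 to 197, lay above them. The part of these markers in the level of Ccrl2 was not tested.

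Cxcr4, the Cxcl12 receptor, fell most of all receptors in the first response. Its normalized counts were 2823, 3923 and 3147 in unstimulated BMDMs and 192, 154 and 78.9 in LPS-stimulated BMDMs (log2FC -4.54, SE 0.36, adjusted p = 2.8e-08). After 24 h of priming they were 1338, 1218 and 867, below every unstimulated and above every LPS-stimulated sample (log2FC -1.53 against unstimulated, SE 0.31, adjusted p = 0.00146). LPS-tolerant BMDMs had 684, 979 and 476, higher than LPS-stimulated BMDMs (log2FC 2.33, SE 0.33, adjusted p = 3.9e-05). The level in LPS-tolerant BMDMs was lower than in LPS-primed BMDMs in all 3 pairs of replicates, although the ranges overlapped (log2FC -0.68, SE 0.31, adjusted p = 0.219, or 0.0348 with the replicate block).

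Cx3cr1, the receptor for the membrane-bound chemokine fractalkine, was also highest without LPS. It stood at 238, 303 and 484 normalized counts in unstimulated BMDMs, 106, 87.9 and 109 in LPS-stimulated BMDMs and 16.9, 17.1 and 52.5 in LPS-primed BMDMs, and no 2 of these groups overlapped. The fall was larger after priming (log2FC -3.54, SE 0.71, adjusted p = 0.00129, and -4.32 without LPS-primed replicate 3) than in the single stimulation (log2FC -1.76, SE 0.64, adjusted p = 0.0305), although the 2 were not tested against each other. The second of these calls was lost without unstimulated replicate 2 or 3 or any one LPS-stimulated library, with log2FC values between -1.40 and -1.82, and held with the replicate block (adjusted p = 3.7e-04). LPS-tolerant BMDMs had 21.5, 34.5 and 118, overlapping LPS-stimulated BMDMs (log2FC -0.79, SE 0.66, adjusted p = 0.386). It was lower in 2 of 3 pairs of replicates, and the replicate block gave a log2FC of -1.11 (SE 0.37, adjusted p = 0.0186). Its ligand Cx3cl1 had means of 10.4 in unstimulated and 87.7 in LPS-stimulated BMDMs and 0 reads in all 6 LPS-primed libraries with or without carboplatin.

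Ccr2, the receptor for Ccl2, Ccl7 and Ccl12 that marks inflammatory monocytes, fell in LPS-stimulated and in LPS-primed BMDMs. Unstimulated BMDMs had 138, 396 and 524 normalized counts, LPS-stimulated BMDMs 41.8, 145 and 61.1 and LPS-primed BMDMs 49.7, 121 and 89.1. The log2FC against unstimulated BMDMs was -2.07 (SE 0.53, adjusted p = 0.00351) in LPS-stimulated and -2.03 (SE 0.53, adjusted p = 0.00868) in LPS-primed BMDMs. Without LPS-stimulated replicate 2 the first was -2.77, and without unstimulated replicate 3 the second was -1.61 with an adjusted p of 0.0502. LPS-tolerant BMDMs had the lowest level among the groups without carboplatin, at 8.86, 27.6 and 37.1, below every LPS-stimulated sample (log2FC -1.74, SE 0.57, adjusted p = 0.0256). This call was lost without LPS-tolerant replicate 1 (adjusted p = 0.0965) or 2 (0.0564) or LPS-stimulated replicate 2 (log2FC -1.04, adjusted p = 0.208), and with limma-voom (0.101) or a fit of the compared groups only (0.0513). LPS-tolerant samples were also below every LPS-primed sample (log2FC -1.78, SE 0.58, adjusted p = 0.077, or 7.3e-04 with the replicate block).

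Markers of other cell types were set beside Ccr2 as well. Among B cell markers, Cd79a, Ms4a1 and Pax5 had at most 2 reads in any sample, but Ighm was at 255 to 1542 normalized counts in unstimulated BMDMs, 69.2 to 271 in LPS-stimulated BMDMs and at most 9.19 in the 4 primed groups. The summed level of 5 monocyte markers was 20.0 to 42.1 in unstimulated and 275 to 313 in LPS-primed BMDMs, led by Ly6c2 and F13a1. These marker levels moved in opposite directions, and their part in the fall of Ccr2 was not tested. Of 6 T and NK cell markers, each had at most 3 reads in any sample. Among 7 stromal and endothelial markers Vwf was the most abundant, with means from 1570 in unstimulated to 306 in LPS-primed BMDMs with carboplatin. These markers did not move together. Vwf and Kdr fell on priming, while Cdh5 did not pass there (log2FC 2.06, SE 0.87, adjusted p = 0.0965). In LPS-stimulated BMDMs Cdh5 rose (log2FC 5.44, SE 0.79, adjusted p = 2.6e-05). Neither Vwf (-0.85, SE 0.50, adjusted p = 0.172) nor Kdr (-0.50, SE 0.44, adjusted p = 0.366) passed in that comparison. With the replicate block Vwf passed in it as lower (-0.91, SE 0.22, adjusted p = 0.00151).

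Whether the receptors answered a second dose of LPS as they answered the first was tested as the difference between 2 contrasts, LPS-tolerant against LPS-primed and LPS-stimulated against unstimulated BMDMs. Ccr1, Ccr3 and Ccrl2, which rose in the first response, and Cxcr4 and Cx3cr1, which fell in it, all responded differently the second time. Thus, 5 of 8 receptors passed, 2 with a higher and 3 with a lower value, beside 10.5% of all genes with a higher and 13.3% with a lower value. The 2 contrasts share no samples, but they differ in the history of the cells, in the medium change and in the starting level.

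The second response by itself was read from LPS-tolerant against LPS-primed BMDMs. None of the 8 receptors passed by edgeR, beside 6.31% of all genes, and 2 had an unadjusted p under 0.05. With the replicate block 2 of 8 passed, Ccr2 and Cxcr4, both lower, beside 8.32% of all genes called lower in that fit, while DESeq2 called Ccr2 alone (adjusted p = 0.0206) and limma-voom called none. The receptors that had risen in the first response gave log2FC values of 0.16 (Ccr1), -0.29 (Ccrl2, SE 0.36) and -0.75 (Ccr3, SE 0.84) the second time. Ccr2, with a log2FC of -1.78 (SE 0.58) the second time and -2.07 (SE 0.53) the first, had no overlap between LPS-tolerant and LPS-primed samples.

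The difference between second and first response was -3.63 on the log2 scale for Ccr1 (SE 0.47, adjusted p = 2.5e-05). It was -3.17 for Ccrl2 (SE 0.52, adjusted p = 2.5e-04, and -2.53 without LPS-stimulated replicate 1). For Ccr3 it was -4.14 (SE 1.20, adjusted p = 0.0184), and this call was lost without LPS-primed replicate 2 (-3.10, adjusted p = 0.079) or LPS-stimulated replicate 2 (-3.65, adjusted p = 0.0517). Among the receptors that fell in the first response, the difference was 3.87 for Cxcr4 (SE 0.46, adjusted p = 9.2e-06). For Cx3cr1 it was 2.75 (SE 0.95, adjusted p = 0.0444), it ranged from 1.72 without LPS-tolerant replicate 3 to 3.53 without LPS-primed replicate 3, and the call was lost in 8 of the 12 fits that left out a library. The 8 libraries were unstimulated replicates 2 and 3, LPS-primed replicates 1 and 2, LPS-tolerant replicate 3 and the 3 LPS-stimulated ones, and the replicate block gave an adjusted p of 8.7e-04. Ccr2 fell in both responses, and its difference was 0.29 (SE 0.78, adjusted p = 0.834). Cmklr1 had a difference of -0.39 (SE 0.64, adjusted p = 0.717).

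**Figure D2:**
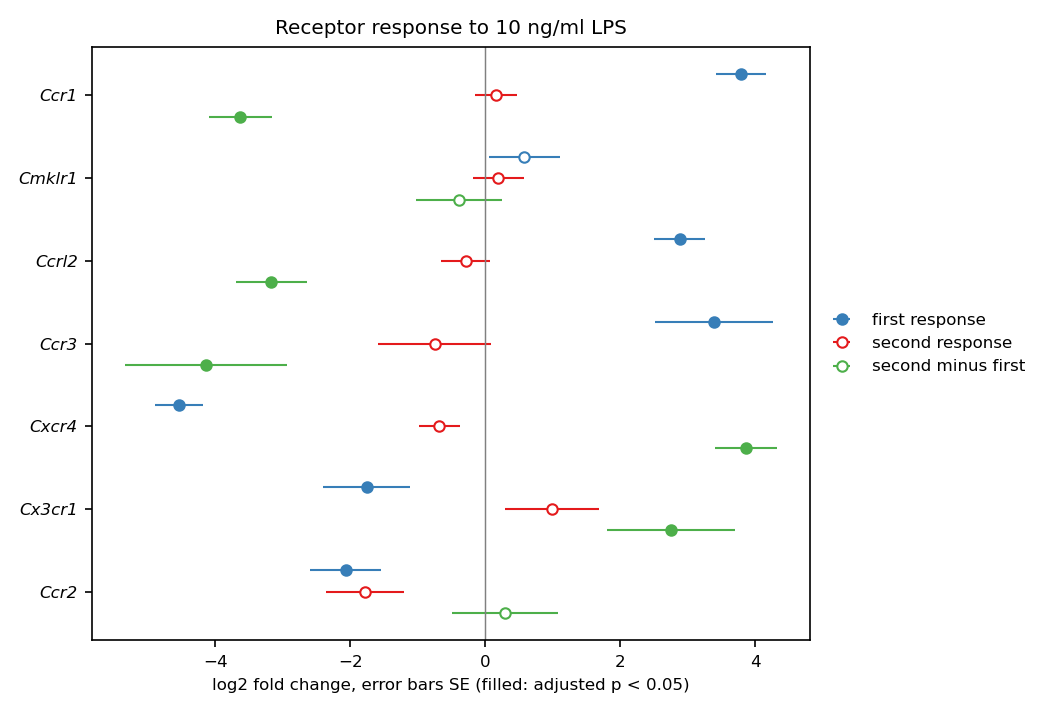
Log2FC with SE for 7 receptors in the first response to 10 ng/ml LPS, in the second response after priming, and for their difference, with filled symbols at an adjusted p under 0.05. The first responses of Ccr1, Ccrl2 and Ccr3 lie between 2.88 and 3.79 and that of Cxcr4 at -4.54, whereas their second responses lie between -0.75 and 0.16, and Ccr2 is at -2.07 and -1.78. Ackr3 is left out because it had 0 reads in both groups of the first response.

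LPS-tolerant and LPS-stimulated BMDMs, which both ended with 10 ng/ml LPS, differed in 6 of 8 receptors. Ccr1, Cmklr1 and Cxcr4 were higher and Ccr2, Ccr3 and Ccrl2 lower in LPS-tolerant BMDMs, beside 16.2% of all genes called higher and 18.3% lower. With the fold limit 5 of 8 were called, beside 8.04% of all genes. With the replicate block all 8 tested receptors passed, beside 47.6% of all genes.

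The 3 receptor genes of the cluster moved in different directions. In LPS-primed BMDMs Ccr1 rose, Ccr2 fell and Ccr3 did not pass, while in LPS-stimulated BMDMs Ccr1 and Ccr3 rose and Ccr2 fell. Lztfl1, a gene linked to ciliary transport, and Fyco1 are no chemokine receptors and lie at -244.2 and -143.6 kb from Ccr1. In LPS-stimulated BMDMs Lztfl1 had a log2FC of 3.38 (SE 0.23, adjusted p = 5.4e-09), near the 3.39 of Ccr3. Fyco1, the nearer of the 2 to Ccr1, had a log2FC of -0.14 (SE 0.31, adjusted p = 0.732).

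**Figure D3:**
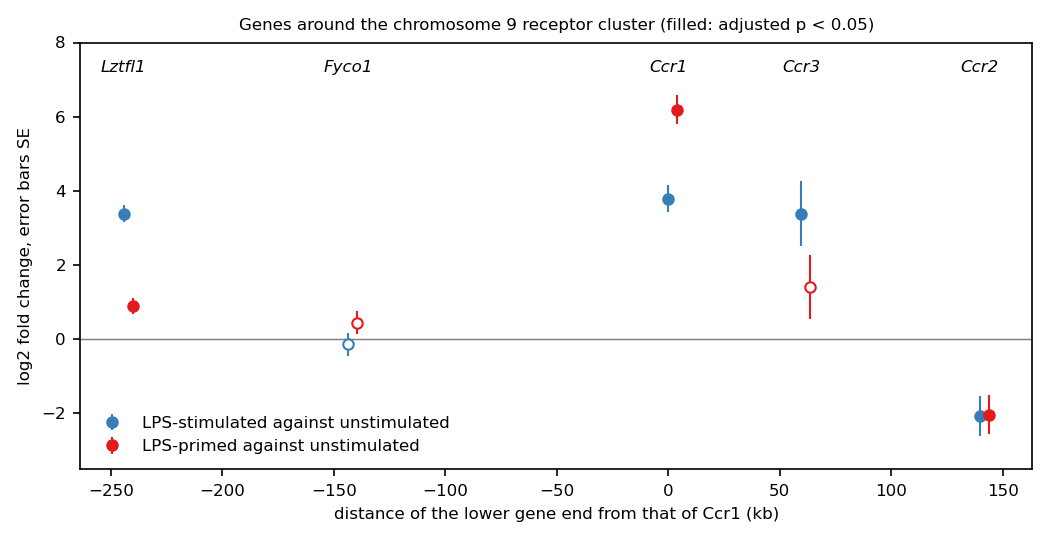
Log2FC with SE against unstimulated BMDMs for 5 genes around the cluster, placed by the distance in kb of the lower gene end from that of Ccr1, with LPS-primed points shifted slightly to the right and filled symbols at an adjusted p under 0.05. Ccr1 and Ccr3 are separated by 59.8 kb and both rise in LPS-stimulated BMDMs, and Ccr2, at 139.8 kb, falls in both comparisons.

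Carboplatin was compared within primed and within tolerant BMDMs at the study's limit of an adjusted p under 0.25. No receptor passed in either state by edgeR, beside 1.20% of all genes in LPS-primed and 1.65% in LPS-tolerant BMDMs, and none had an unadjusted p under 0.05. DESeq2 and limma-voom also called none. The log2FC values of Ccr1, Ccr3 and Ccrl2 lay between -0.22 and 0.47.

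Cx3cr1 had the lowest log2FC of the 8 receptors with carboplatin in both states, although in LPS-tolerant BMDMs Ackr3, which rested on few reads, was close to it (-0.97, SE 1.37). In LPS-primed BMDMs it had 16.9, 17.1 and 52.5 normalized counts without and 1.35, 5.64 and 24.2 with carboplatin, lower in all 3 pairs of replicates but with overlapping ranges (log2FC -1.42, SE 0.82, adjusted p = 0.839). With the replicate block it passed (log2FC -1.47, SE 0.51, adjusted p = 0.177), as the single receptor of 8, beside 7.87% of all genes. In LPS-tolerant BMDMs it had 21.5, 34.5 and 118 without and 9.18, 19.4 and 57.0 with carboplatin, again lower in all 3 pairs (log2FC -0.98, SE 0.71, adjusted p = 0.968, or 0.323 with the block). This value turned to 0.0504 without LPS-tolerant replicate 3. The summed level of the 5 monocyte markers was also lower with carboplatin, at 125 to 163 against 275 to 313 in LPS-primed and at 131 to 164 against 273 to 466 in LPS-tolerant BMDMs. Of the 5 markers 3 were tested, and none passed by edgeR in either state. F13a1 had log2FC values of -1.77 (SE 0.67, adjusted p = 0.495, or 0.0171 with the block) and -2.09 (SE 0.67, adjusted p = 0.306, or 0.0052 with the block). Ly6c2 had -0.33 (SE 0.66) and -0.95 (SE 0.65), and Plac8 had -0.16 (SE 1.49) and 0.34 (SE 1.59). The part of these markers in the level of Cx3cr1 was not tested. Ccr2 had a log2FC of -0.52 (SE 0.54) in LPS-primed and -0.38 (SE 0.63) in LPS-tolerant BMDMs. The effect of carboplatin differed between the 2 states for no receptor, beside 0% of all genes, and for none at an unadjusted p under 0.05.

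**Figure D4:**
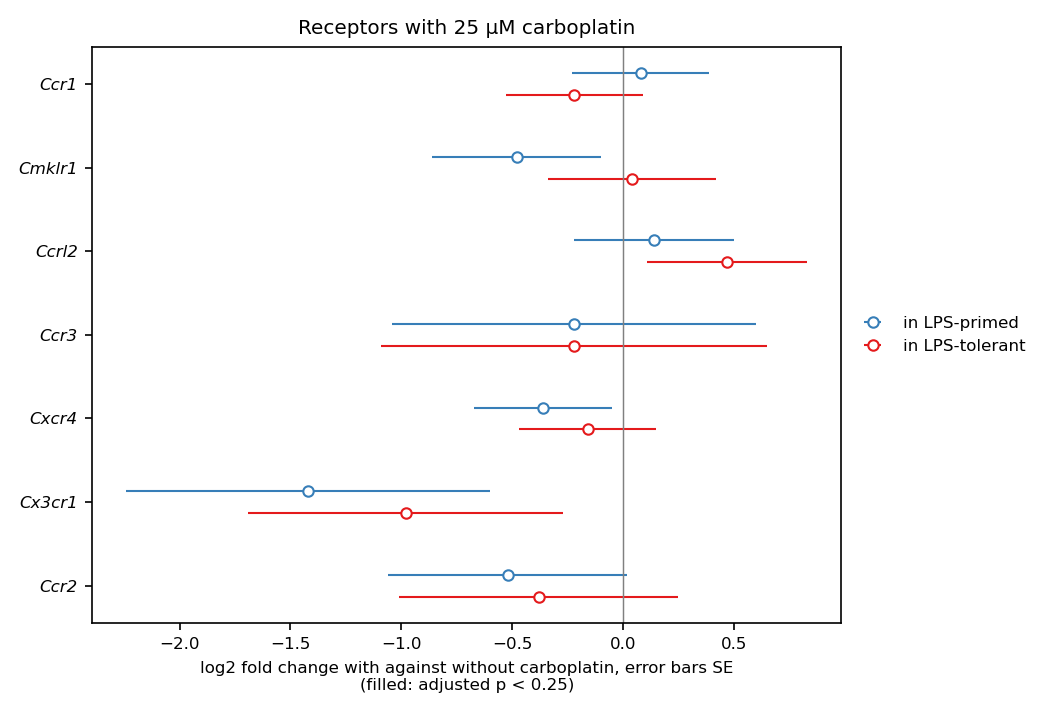
Log2FC with SE for carboplatin against no carboplatin in LPS-primed and in LPS-tolerant BMDMs for 7 receptors, with no symbol filled because none had an adjusted p under 0.25. Cx3cr1 lies furthest to the left in both states, at -1.42 and -0.98.

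Samples with the same replicate number deviated together, and this was strong for several receptors. When the replicate number was tested as a term beside the groups, 5 of 8 receptors had an adjusted p under 0.05, beside 41.5% of all genes, so the share of the receptors is described and not read as particular to them. Ccr3 was highest in replicate 2 in all 6 groups (replicate 2 against 1, log2 difference 1.93, adjusted p = 1.8e-04). Cx3cr1 was highest in replicate 3 in all 6 groups (replicate 3 against 1, 1.48, adjusted p = 7.5e-04). Ccr2 was lowest in replicate 1 in all 6 groups (replicate 2 against 1, 1.41, adjusted p = 3.0e-04). Ackr3 (adjusted p = 0.00265) and Cxcr4 (0.0158) also passed. Ccr1 (adjusted p = 0.094), Ccrl2 (0.176) and Cmklr1 (0.509) did not. What the replicate numbers stand for, such as a batch or an animal, was not given, and this test was chosen after the data had been seen.

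**Figure D5:**
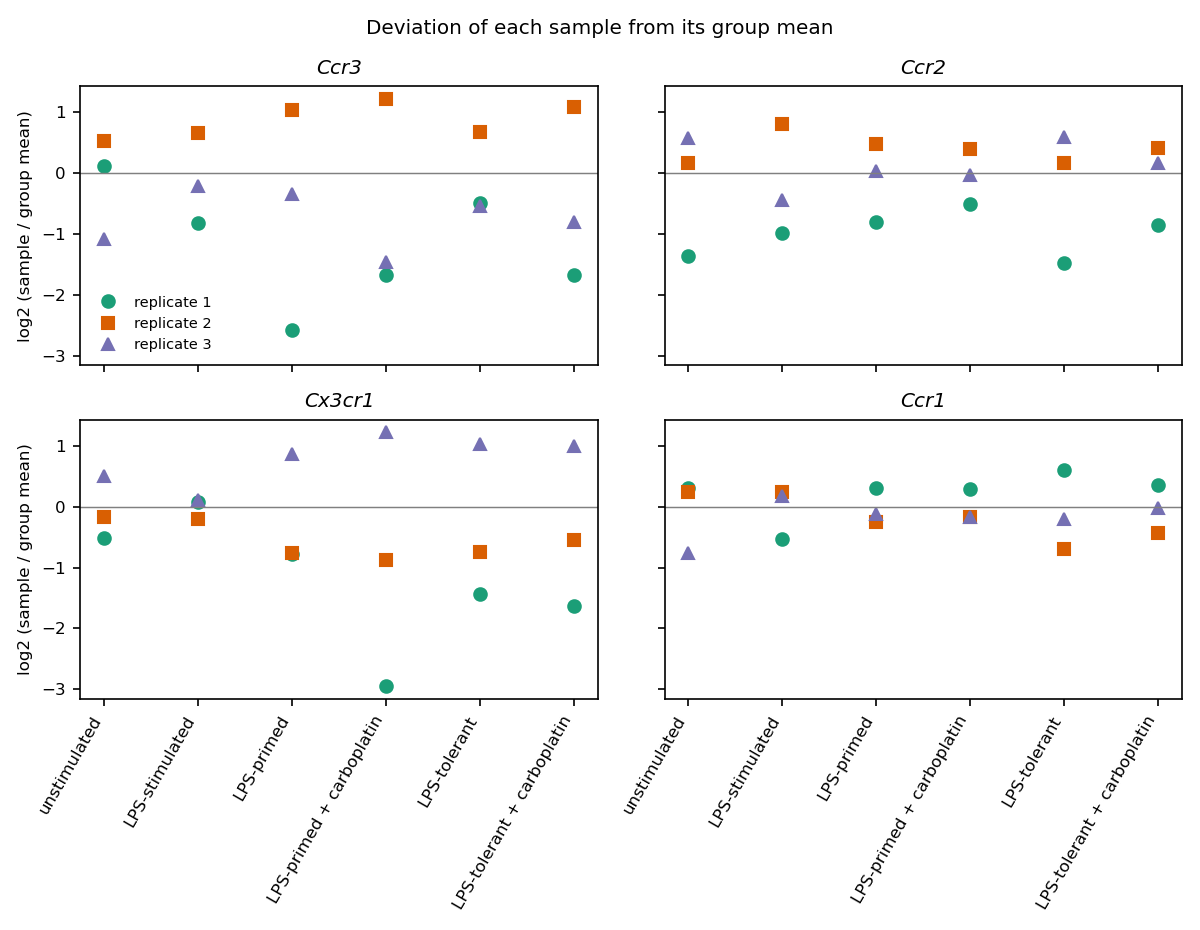
Log2 ratio of each sample's normalized count to its group mean for Ccr3, Ccr2, Cx3cr1 and Ccr1 in the 6 groups, with symbols for the replicate number. Replicate 2 is highest for Ccr3 and replicate 3 for Cx3cr1 in all 6 groups, replicate 1 is lowest for Ccr2 in all 6, and the 3 replicates of Ccr1 lie closer together.

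The chemokines that these receptors bind were described from a list of 18 ligands, of which 17 were in the count data, 5 had at most 3 reads in every sample and 12 were tested. In LPS-stimulated BMDMs 10 of the 12 rose and none fell, beside 24.3% and 26.9% of all genes, with a median log2FC of 3.65 beside -0.09 over all genes. In LPS-primed BMDMs 8 rose and 1 fell, beside 12.1% and 13.1% of all genes, with a median of 2.41 beside -0.02. The ligands of Ccr2 rose while the receptor fell: Ccl2 had means of 61.7 in unstimulated, 1795 in LPS-primed and 11263 in LPS-tolerant BMDMs, with log2FC 4.87 (SE 0.91, adjusted p = 7.1e-04) on priming. Ccl7, a second ligand of Ccr2, gave 5.39 (SE 1.10, adjusted p = 0.00143). Ligands of Ccr1 that rose together with it on priming included Ccl5 (log2FC 6.49, SE 0.46, adjusted p = 2.2e-08), Ccl6 (2.47, SE 0.28, adjusted p = 4.0e-06) and Ccl9 (1.89, SE 0.18, adjusted p = 5.0e-07). Ccl3 did not pass on priming (log2FC 0.48, SE 0.33, adjusted p = 0.334). Its means were 541 in unstimulated, 751 in LPS-primed and 14937 in LPS-stimulated BMDMs. Ccl4, also on the ligand list, did not pass either (log2FC 0.55, SE 0.26, adjusted p = 0.142), with means of 130, 191 and 8574 in these groups. Mif, a cytokine that also binds Cxcr4, rose on priming (log2FC 2.34, SE 0.33, adjusted p = 4.8e-05). Carboplatin changed none of the 12 ligands by edgeR in either state, and with the replicate block 3 passed in LPS-primed and 1 in LPS-tolerant BMDMs, beside 7.87% and 6.93% of all genes. In the second response minus the first, 8 of 12 ligands had a lower value and none a higher one, beside 13.3% and 10.5% of all genes, with a median of -2.24.

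Of 22 other chemoattractant receptors, 12 had at most 3 reads in every sample, among them Cxcr1, Cxcr2, Ccr6 and Ccr8, and 7 were tested. On priming 3 rose, among them C5ar1 and Ltb4r1, and 3 fell, Cxcr3, C3ar1 and C5ar2. The shares of all genes were 12.1% called higher and 13.1% called lower. Ltb4r1, the receptor for leukotriene B4, had a mean of 2.15 in unstimulated and 51.4 in LPS-primed BMDMs, and Cmklr1 also rose on priming. Between LPS-primed and LPS-tolerant BMDMs the 2 genes were less alike. Ltb4r1 had a log2FC of -1.27 (SE 0.48, adjusted p = 0.132, or 0.0168 with the replicate block), beside 0.19 (SE 0.38) for Cmklr1. Cxcr3, which binds interferon-induced chemokines, had means of 80.9 and 9.49 (log2FC -3.09, SE 0.50, adjusted p = 1.8e-04). The median log2FC of the 7 was -0.55, and with the replicate block all 7 passed, beside 38.6% of all genes. Ptafr, the receptor for platelet-activating factor, fell between LPS-stimulated and LPS-tolerant BMDMs (log2FC -2.08, SE 0.26, adjusted p = 9.8e-06).

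Of 30 genes of receptor signalling and desensitization, all were tested, and 6 rose and 5 fell on priming, beside 12.1% and 13.1% of all genes, with a median log2FC of 0.14. With the replicate block 17 passed, beside 38.6% of all genes. In LPS-stimulated BMDMs 9 rose and 12 fell, beside 24.3% and 26.9%, so these counts are given as a description of the list. Genes of Rgs proteins, which shut off G proteins and differ in the G proteins they act on, moved in both directions. Rgs2 fell on priming (log2FC -3.07, SE 0.41, adjusted p = 2.7e-05), as did Rgs10 (-2.13, SE 0.16, adjusted p = 4.3e-08), and Rgs16 had 0 reads in unstimulated BMDMs, a mean of 111 in LPS-stimulated and 7.75 in LPS-tolerant BMDMs. Against LPS-stimulated BMDMs, Rgs14 was higher in LPS-tolerant ones (log2FC 3.25, SE 0.33, adjusted p = 1.2e-06), while the kinase gene Grk3 (-2.77, SE 0.55, adjusted p = 8.1e-04) and Pik3r5, a regulatory subunit of PI3K gamma (-2.01, SE 0.16, adjusted p = 6.1e-08), were lower. With carboplatin 2 of the 30 passed in each state, beside 1.20% and 1.65% of all genes, Dock2 and Elmo1, which act together to activate Rac in migrating cells. Dock2 fell by 1.30 in LPS-primed (SE 0.15, adjusted p = 2.0e-04) and by 1.36 in LPS-tolerant BMDMs (SE 0.15, adjusted p = 2.9e-04) on the log2 scale. Elmo1 fell by 1.42 (SE 0.20, adjusted p = 0.00136) and by 1.06 (SE 0.20, adjusted p = 0.0237).

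The genes most like each receptor across the 18 samples were taken by Pearson's r of log2 CPM, as a description in which the samples share groups, libraries and replicate numbers. For Ccr1 they were Lcn2, Slc16a3 and Prdx5 (r = 0.99 each). Cmklr1 was most like Lpcat2, Itgam and Tbc1d9 (0.96 each), and Cxcr4 was most like Dhx32 (0.97), Sgsh (0.95) and Mfsd11 (0.95). Ccrl2 was nearest to Nupr1 (0.94), Tnfsf9 (0.93) and Mrpl39 (0.93). For Ccr3 they were Slc13a3 (0.91), Rnf2 (0.90) and Ifi211 (0.88), for Ccr2 Pip4k2a, Pla2g15 and Slc46a3 (0.93 each) and for Cx3cr1 Plscr4 (0.93), Fundc2 (0.91) and Asph (0.91). The low counts of Ackr3 were nearest to Mboat7, Adamts7 and Rasgrf1 (0.87 each). Among the receptors themselves, the closest pair was Ccr1 and Cmklr1 (0.86), and the most opposed were Ccr1 and Cx3cr1 (-0.82) and Ccrl2 and Cxcr4 (-0.80).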

How the data were processed

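The authors sequenced stranded mRNA libraries as paired reads on a HiSeq, aligned them with HISAT2 to GRCm39 and used HTSeq-count for counting. The values deposited by the authors are raw counts per gene symbol. Program versions, annotation and strand option are not given in the sources used here. Reads on no gene, 26.5 to 33.1% of a file's total, and the other summary rows (5 in all) were left out.

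Receptors and lists were chosen with earlier results of these data known. All 18 samples entered one edgeR 4.0.16 model (R 4.3.3) with 6 group means, TMM scaling and the default filter (minimum count 10, minimum total 15), which left 11305 genes, and contrasts were tested by quasi-likelihood F. SE was obtained as the log2FC over the root of F. P values were adjusted by Benjamini-Hochberg across these genes, with limits of 0.05, or 0.25 for carboplatin. A gene with at most 3 reads in each library of a group was at a floor, and folds against it are lower bounds covering counting error only. Normalized counts are scaled to the mean effective library size. The script was tested on simulated data. List genes past a log2FC of 2 on priming or in LPS-tolerant against LPS-stimulated BMDMs were named, at most 4 per list and direction, with those passing for carboplatin, ligands beside their receptors, and 3 genes of highest r per receptor (log2 CPM, prior count 2). Other named neighbours, markers and list genes were chosen after their values were seen.

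Same-numbered samples deviated together in every pair of groups compared (lowest correlation 0.183), so numbers were taken as pairs, and the replicate block was an alternative to the model without it. DESeq2 1.42.0, limma-voom (limma 3.58.1), other scalings, no filter, stricter limits and leaving out each library were further alternatives. A few list genes are not reported here. Positions and exon lengths come from GENCODE vM39 on GRCm39.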

Additional observations from a re-analysis of the deposited data

Results flagged for a closer look

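For 5 receptors the second response to LPS differed from the first by the test of the difference itself, on the log2 scale: Ccr1 (-3.63), Ccr3 (-4.14), Ccrl2 (-3.17), Cx3cr1 (2.75) and Cxcr4 (3.87). In each of the 5, all 3 replicate numbers gave the same direction of the difference. Because the 5 were picked by this test in the same samples, that agreement is a description and no further evidence. The Cx3cr1 difference (adjusted p = 0.0444) did not pass in 8 of the 12 fits without one library and was 1.72 without LPS-tolerant replicate 3, and that of Ccr3 did not pass without LPS-primed replicate 2 or LPS-stimulated replicate 2. The contrasts differ in the starting level of each gene and in the change of medium, which cannot be told apart from the history of LPS exposure.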

How the results depend on the processing

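The number of receptors called stayed within 1.5 times the main number under the other scalings, no filter and limma-voom. In the second response minus the first it was 3 in place of 5 with an adjusted p under 0.01, and 3 to 5 without one library, the 3 being reached without LPS-primed replicate 2 or LPS-stimulated replicate 2. In LPS-tolerant against LPS-primed BMDMs it was 2 with the replicate block and 1 with DESeq2 in place of 0, and with carboplatin in LPS-primed BMDMs 1 with the replicate block in place of 0. The replicate block added 6 calls of single receptors, given beside each result, and changed no other call. Called log2FC values did not change sign under any alternative. The log2FC values that changed sign when one library was left out belonged to differences that were not called, and over those fits they ranged for LPS-stimulated against unstimulated Cmklr1 from -0.19 to 0.99, for LPS-tolerant against LPS-primed Ccr3 from -1.28 to 0.29, Ccr1 from -0.27 to 0.41 and Cx3cr1 from -0.0391 to 1.77, for carboplatin in LPS-primed Ccrl2 from -0.0044 to 0.27, Ccr1 from -0.0938 to 0.26, Ccr3 from -1.79 to 0.82 and Ackr3 from -0.57 to 1.04, for carboplatin in LPS-tolerant Ccr1 from -0.47 to 0.21, Ccr3 from -1.36 to 0.31, Cxcr4 from -0.38 to 0.14, Cmklr1 from -0.12 to 0.15, Ccr2 from -0.75 to 0.0075 and Cx3cr1 from -2.01 to 0.0504, and for the second response minus the first Cmklr1 from -0.79 to 0.38 and Ccr2 from -0.12 to 0.98. Scaling by library size alone moved the median log2FC of all genes from -0.02 to -0.26 on priming and from -0.09 to -0.43 in LPS-stimulated BMDMs, and no receptor call changed direction. Depth limited Ccr7 and Ackr3, whose highest counts were 9 and 20 reads.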

Other observations

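Among the other chemoattractant receptors, C5ar1, the receptor for the complement fragment C5a, was higher in LPS-tolerant than in LPS-primed BMDMs (log2FC 1.03, SE 0.20, adjusted p = 0.00551). Grk6, a kinase that desensitizes chemokine receptors, was lower (log2FC -0.65, SE 0.16, adjusted p = 0.0219).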
